A study of Mus musculus with 12 samples.

Results

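The genes described here are the classical marker transcripts of the dentate granule cell, the principal neuron of the dentate gyrus of the hippocampus: *Prox1*, *Dsp*, *C1ql2*, *Calb1*, *Lct*, *Tdo2* and *Pdzd2*. They were chosen by name, as the rows of the expression table whose Ensembl identifiers carry these symbols in the GENCODE M21 mouse annotation. All 7 were found among the 26409 genes of the table, and all 7 passed the filter on low values. RNA was sequenced from the microdissected hippocampus of adult mice aged 6–12 months that had completed behavioral testing. The *Dek* cKO mice descend from a cross of *Dek* fl/fl mice, in which loxP sites flank exons 3 and 4 of the gene for the chromatin protein DEK, with CMV-Cre mice, which express Cre in all tissues, on the C57Bl/6 strain. The deletion passed through the germline and the Cre transgene was then bred out, so the loss of *Dek* was constitutive and was present in every cell of the brain. Wild-type (WT) mice were the controls. There were 6 WT and 6 *Dek* cKO libraries, made up of 3 female and 3 male mice of each genotype.

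Granule cells are densely packed glutamatergic neurons that receive the main cortical input to the hippocampus and send their axons, the mossy fibers, to hilar mossy cells and to CA3 pyramidal neurons. They continue to be born in the adult brain, and the homeodomain transcription factor PROX1 is required both for the formation of the dentate gyrus and for keeping the identity of its granule cells. The other genes mark the mature cell: calbindin buffers calcium, C1QL2 is a secreted synapse organizer of mossy fiber terminals, desmoplakin anchors intermediate filaments at cell junctions, and lactase and tryptophan dioxygenase are enzymes better known from gut and liver. The study asked how loss of DEK bears on learning and memory in female and male mice, and the comparison made here is whether the marker transcripts of this cell type differed between genotypes. In whole hippocampal tissue, fewer granule cells and less RNA per granule cell cannot be told apart.

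The members are scattered over the genome. In GRCm38 coordinates with the GENCODE M21 annotation, *C1ql2* lies at chr1:120340582-120343174 on the plus strand, *Lct* at chr1:128284756-128328318 on the minus strand and *Prox1* at chr1:190118035-190170714 on the minus strand. *Tdo2* lies at chr3:81957090-81976202 on the minus strand, *Calb1* at chr4:15881264-15908064 on the plus strand and *Pdzd2* at chr15:12359711-12739924 on the minus strand. *Dsp*, at chr13:38151294-38198577 on the plus strand, shares its chromosome with the deleted gene and ends 8.89 Mb before the start of *Dek*. All 7 are protein-coding genes, and the values below are for whole genes, not for single transcripts.

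RefSeq promoter sequence on GRCm38.p6 was held for 6 of the 7 members; *Calb1* was the exception. The 250 bases before the annotated start are shown for *Prox1*, the identity factor, *C1ql2*, the most abundant marker, and *Dsp*, the marker on the chromosome of *Dek*, because these 3 genes differed in how they varied over the libraries and their windows lie outside the annotated gene. Capitals mark matches to the E-box CANNTG, the core recognized by basic helix-loop-helix factors such as NEUROD1, which acts in granule cells. The windows are chr1:190170828-190171077 on the minus strand for *Prox1*, chr1:120340332-120340581 on the plus strand for *C1ql2* and chr13:38151044-38151293 on the plus strand for *Dsp*, all printed 5′ to 3′.
Prox1: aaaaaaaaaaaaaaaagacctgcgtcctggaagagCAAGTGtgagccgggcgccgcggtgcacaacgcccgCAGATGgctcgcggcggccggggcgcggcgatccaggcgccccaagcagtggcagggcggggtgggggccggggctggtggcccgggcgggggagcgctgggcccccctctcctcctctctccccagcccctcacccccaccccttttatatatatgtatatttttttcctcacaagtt
C1ql2: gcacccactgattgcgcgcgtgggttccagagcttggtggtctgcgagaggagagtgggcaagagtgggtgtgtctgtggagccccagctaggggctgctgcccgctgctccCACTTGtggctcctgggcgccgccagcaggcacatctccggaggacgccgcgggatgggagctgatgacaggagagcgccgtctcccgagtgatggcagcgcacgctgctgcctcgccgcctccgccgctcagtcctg
Dsp: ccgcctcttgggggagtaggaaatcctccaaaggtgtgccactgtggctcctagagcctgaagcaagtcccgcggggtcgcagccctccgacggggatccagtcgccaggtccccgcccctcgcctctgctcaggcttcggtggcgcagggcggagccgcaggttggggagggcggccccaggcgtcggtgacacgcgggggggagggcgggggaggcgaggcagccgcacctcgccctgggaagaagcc
The window of *Prox1* held 2 matches to CANNTG, that of *C1ql2* 1 and that of *Dsp* none. Over the 6 members with a window, 3 held the motif (*Prox1*, *C1ql2* and *Lct*), against 66.2% of the 32851 promoter windows of the same length. The variant CAGATG, searched on both strands and contained in CANNTG, occurred in the *Prox1* window alone among the members and in 14.4% of all windows, and CAGCTG, also contained in CANNTG, in no member and in 13.0% of all windows. TATAAA, searched on both strands, was found for *Prox1* and *Tdo2* and in 12.4% of all windows, and the cAMP element core TGACG, on both strands, in no member and in 17.8% of all windows. The G and C content of the members' windows ran from 42.8% for *Lct* to 72.4% for *Dsp*, beside a median of 52.4% over all windows. These matches describe letters in a window only.

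Expression was given in TPM, the number of transcripts relative to all transcripts of a library after correction for length, so that levels may be compared between genes. The libraries' values summed to between 825750 and 845553 TPM, and between 18104 and 18719 genes were above 0. Read depth cannot be read from TPM and is therefore unknown. As a check of the genotype labels, *Dek* itself measured 44.2 to 51.9 TPM in the 6 WT libraries and 5.55 to 9.25 TPM in the 6 cKO libraries. The sex labels of 2 cKO libraries disagreed with the Y-linked genes: *Eif2s3y* was at 72.7 TPM in the library labelled female cKO 3 and at 0.111 TPM in the library labelled male cKO 1. Both were kept in their labelled groups. All 3 female WT libraries have names beginning with C57 and the other 9 have names beginning with CMV, so that within the WT mice this prefix and sex cannot be told apart. Within the libraries labelled female, this prefix and genotype cannot be told apart either. The library male cKO 3 stood apart from the rest: of 14160 genes that averaged 1 TPM or more, 323 were above every other library and 259 below every other library by more than 0.5 on the log2 scale, where no other library exceeded 97 and 98 genes.

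The 7 markers covered a wide range of levels. *C1ql2* was the most abundant, with a mean of 76.9 ± 21.0 TPM (SD, n = 12), followed by *Calb1* at 69.1 ± 15.4 TPM. The order went on with *Lct* at 11.1 ± 3.49 TPM, *Pdzd2* at 8.88 ± 1.58 TPM and *Dsp* at 7.29 ± 1.83 TPM. The lowest levels were those of *Tdo2* at 5.75 ± 2.22 TPM and *Prox1* at 2.17 ± 1.05 TPM. The transcription factor that defines the cell was thus the scarcest of the 7 transcripts, and the secreted synapse organizer and the calcium buffer were the most abundant. Only the step from *Calb1* to *Lct* was free of overlap: *Calb1* exceeded *Lct* in 12 of 12 libraries and the ranges did not meet. *C1ql2* exceeded *Calb1* in 7 of 12 libraries, so these neighbors did not differ beyond their spread. *Pdzd2* exceeded *Dsp* in 9 of 12, and *Lct* exceeded *Pdzd2*, *Dsp* exceeded *Tdo2* and *Tdo2* exceeded *Prox1* in 11 of 12 each, with overlapping ranges.

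**Figure D1:**
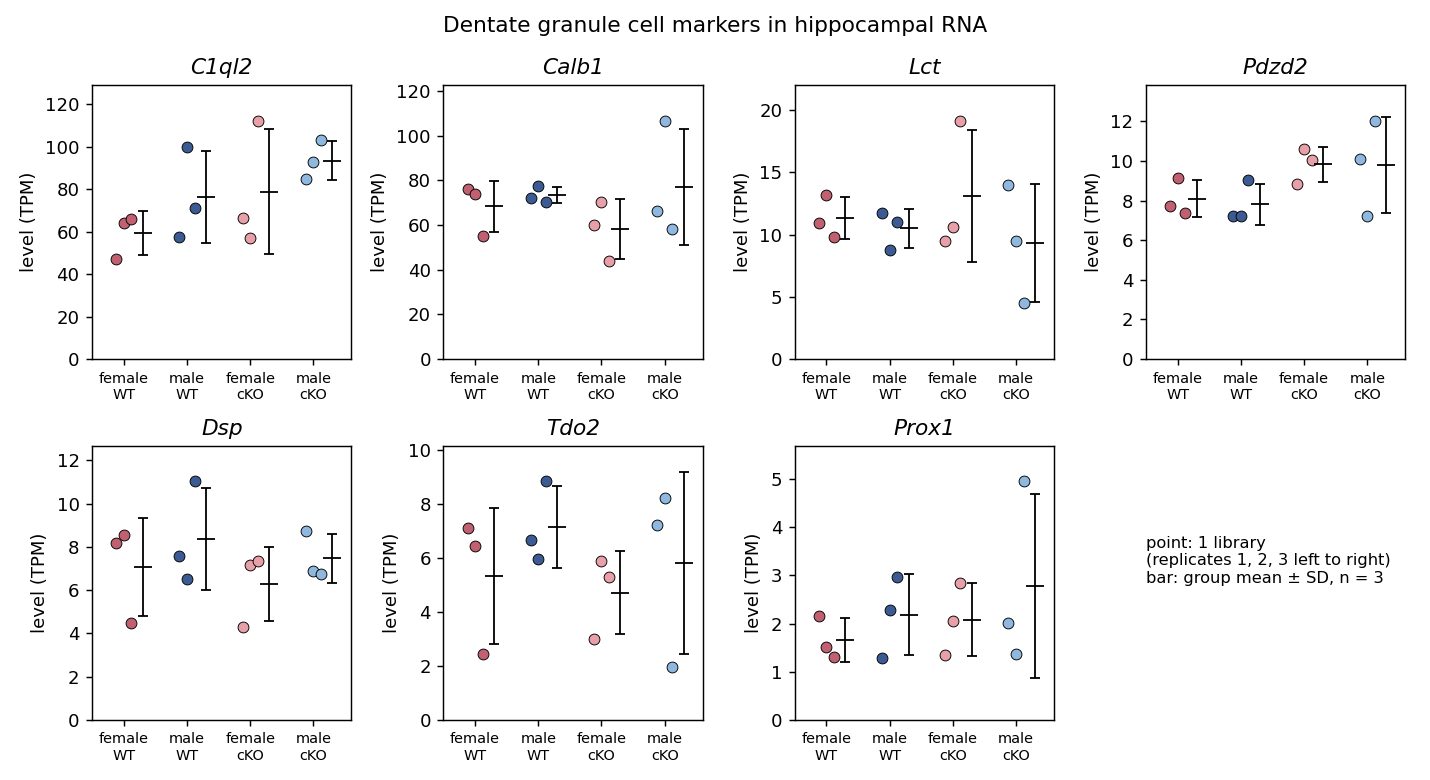
Level of the 7 granule cell markers in TPM (vertical axes, each from 0), with 1 point per library for female WT, male WT, female cKO and male cKO mice and bars for the group mean ± SD (n = 3). WT and cKO points overlap for every gene, and for *Pdzd2* 4 of the 6 cKO points lie above the highest WT point.

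No marker differed between the genotypes at the threshold used, which was a Benjamini-Hochberg adjusted p under 0.05 and a fold change over 1.2 in limma. In the comparison of 6 cKO with 6 WT libraries, 0 of the 7 members were called, beside 0.148% of the 18197 genes tested (27 genes). At an unadjusted p under 0.05, limma gave 1 of the 7 (*Pdzd2*) beside 6.64% of all genes. The WT and cKO values did not separate for any member, where 0.676% of all genes had all 6 cKO values on one side of all 6 WT values. The log2 fold changes were positive for 3 members and negative for 4, with a median of -0.08 beside 0.02 over all genes.

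The identity factor *Prox1* varied more than it differed between genotypes. In the female WT libraries it measured 2.17, 1.52 and 1.30 TPM and in the male WT libraries 1.29, 2.28 and 2.97 TPM. In the female cKO libraries it measured 1.34, 2.04 and 2.85 TPM and in the male cKO libraries 2.01, 1.37 and 4.95 TPM. The genotypes overlapped throughout, except that male cKO 3 stood above every other library. The means were 1.92 ± 0.67 TPM in WT and 2.43 ± 1.36 TPM in cKO mice (SD, n = 6 each). The log2 fold change was 0.24 with a standard error of 0.31 and a 95% confidence interval from -0.42 to 0.91 (limma, adjusted p = 0.946), and the two-sided exact permutation test of the mean log2 levels gave p = 0.541. Without male cKO 3 the log2 fold change was 0.01. *Prox1* is also made by lymphatic endothelium and by some interneurons. Summed over the 4 lymphatic markers *Lyve1*, *Flt4*, *Pdpn* and *Mmrn1*, WT libraries ranged from 6.78 to 7.88 TPM and cKO libraries from 6.10 to 11.7 TPM, with the highest sum in male cKO 3. In that library *Pdpn* was at 9.70 TPM and *Flt4* at 1.89 TPM, beside 4.66 to 7.40 and 0.953 to 1.28 TPM in the other 11. *Lyve1* was at 0.136 TPM there, the lowest of the 12 libraries, and *Mmrn1* at 0.0145 TPM, with 0.0818 TPM as its highest value in any library. Summed over 10 interneuron markers, the level was 1395 TPM in male cKO 3 and 934 to 1058 TPM in the other 11 libraries, but without *Npy* the remaining 9 markers summed to 866 TPM there and to 821 to 917 TPM in the others. The part of these cells in the *Prox1* value was not tested.

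*C1ql2*, which clusters kainate-type glutamate receptors at mossy fiber synapses, had the largest positive point estimate among the members. It measured 47.2, 64.2 and 66.1 TPM in female WT mice and 57.7, 100.1 and 71.2 TPM in male WT mice. In female cKO mice it measured 66.6, 57.2 and 112.3 TPM and in male cKO mice 84.7, 92.7 and 103.0 TPM. The 3 male cKO values were above 5 of the 6 WT values, and female cKO 1 and 2 lay among the WT values. The means were 67.8 ± 17.9 TPM in WT and 86.1 ± 21.1 TPM in cKO mice (SD, n = 6 each), and 5 of 6 cKO values exceeded the WT median. Its log2 fold change of 0.34 ± 0.19 (SE), with an interval from -0.06 to 0.74, did not pass the test (limma, adjusted p = 0.808; exact permutation p = 0.139). The choice of control libraries moved this value by more than 1.5 times: it was 0.17 in the CMV-named libraries only, with the male WT mice as controls, and 0.52 with the C57-named female WT mice as the only controls. Without female cKO 1 and 2, the libraries with the highest sums of cortex markers, it was 0.56. Again it was not called (limma, adjusted p = 0.5). This omission was chosen after seeing the data. The 2 libraries left out held the lowest *C1ql2* values of the cKO mice, so their removal could only raise the estimate. In those libraries the 7 cortex markers summed to 306 and 263 TPM, beside 140 to 207 TPM in the other 10. *Cux2*, *Lamp5*, *Tbr1*, *Rasgrf2* and *Tshz2* were above the other 10 in both. *Fezf2*, at 25.3 and 26.6 TPM, lay inside its WT range of 20.5 to 30.1 TPM. *Rorb* did so in female cKO 1 (4.36 TPM, WT 3.82 to 4.58 TPM) and was at its highest in female cKO 2 (6.19 TPM). The part of cortex tissue in the *C1ql2* value was not tested.

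*Calb1*, the calcium buffer, was even among WT mice and less even among cKO mice. It measured 75.9, 73.7 and 55.3 TPM in female WT and 72.2, 77.3 and 70.3 TPM in male WT libraries. In female cKO libraries it measured 59.8, 70.5 and 43.9 TPM and in male cKO libraries 66.1, 106.7 and 58.3 TPM. The cKO libraries thus held both the lowest value (female cKO 3) and the highest (male cKO 2). The means were 70.8 ± 7.99 TPM in WT and 67.5 ± 21.2 TPM in cKO mice (SD, n = 6 each), and the coefficient of variation was 11.3% in WT and 31.4% in cKO libraries; this difference in spread was not tested. On the log2 scale the change was -0.11 ± 0.16 (SE), with an interval from -0.47 to 0.24 (limma, adjusted p = 0.953; exact permutation p = 0.571). *Calb1* is also made by CA1 pyramidal cells and by interneurons.

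*Pdzd2*, a large protein with several PDZ domains, was the sole member with an unadjusted p under 0.05. It measured 7.73, 9.16 and 7.39 TPM in female WT and 7.21, 7.24 and 9.01 TPM in male WT mice. In female cKO mice it measured 8.86, 10.61 and 10.03 TPM and in male cKO mice 10.09, 7.22 and 12.03 TPM. Of the 6 cKO values, 4 lay above the highest WT value, while male cKO 2 lay next to the lowest WT value. The means were 7.96 ± 0.90 TPM in WT and 9.81 ± 1.63 TPM in cKO mice (SD, n = 6 each). On the log2 scale the change was 0.29 with a standard error of 0.12 and an interval from 0.04 to 0.54 (limma, unadjusted p = 0.0273, adjusted p = 0.674), and the exact permutation test gave p = 0.0433 before any correction for testing 7 genes. By the limma p-value it ranked 733 among 18197 genes. The estimate was 0.31 in the CMV-named libraries only, 0.26 with the C57-named controls only and 0.23 without male cKO 3, so the sign did not rest on either control group or on that library, but the adjusted p was above 0.05 under all 25 alternatives run and reached 0.258 at the lowest.

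*Dsp* and *Tdo2* differed in abundance but followed each other over the libraries. *Dsp* measured 8.19, 8.54 and 4.46 TPM in female WT, 7.56, 6.53 and 11.03 TPM in male WT, 4.29, 7.17 and 7.35 TPM in female cKO and 8.76, 6.88 and 6.76 TPM in male cKO mice. *Tdo2* measured 7.10, 6.44 and 2.45 TPM in female WT, 6.66, 5.94 and 8.83 TPM in male WT, 2.98, 5.88 and 5.28 TPM in female cKO and 7.21, 8.24 and 1.96 TPM in male cKO mice. Female WT 3 and female cKO 1 were the lowest 2 libraries for *Dsp* and among the lowest 3 for *Tdo2*, and male WT 3 was the highest for both. The lowest *Tdo2* value was that of male cKO 3, where *Dsp* lay inside the range of the others. The *Dsp* means were 7.72 ± 2.19 TPM in WT and 6.87 ± 1.45 TPM in cKO mice, and the *Tdo2* means 6.24 ± 2.10 and 5.26 ± 2.42 TPM (SD, n = 6 each). For *Dsp* the log2 fold change was -0.15 ± 0.20 (SE), with an interval from -0.58 to 0.29 (limma, adjusted p = 0.95; exact permutation p = 0.524). That of *Tdo2* was -0.30 ± 0.36 (SE), with an interval from -1.08 to 0.47 (limma, adjusted p = 0.94; exact permutation p = 0.461), and -0.06 without male cKO 3. With the C57-named controls only, the log2 fold changes were -0.01 for *Dsp* and -0.04 for *Tdo2*, and in the CMV-named libraries only they were -0.28 and -0.57. Desmoplakin is also made by epithelia. The 6 markers of choroid plexus, the epithelium that borders the dissected tissue, summed to 71.8 TPM in female WT 3 and 47.7 TPM in female cKO 1. In the other 10 libraries they summed to between 68.5 and 4459 TPM. Among these, male cKO 2 had a sum of 68.5 TPM with *Dsp* at 6.88 TPM. Female WT 2 had a sum of 101.3 TPM with *Dsp* at 8.54 TPM. The part of choroid plexus in the *Dsp* value was not tested.

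*Lct*, the gene for lactase, varied more among cKO than among WT mice, with coefficients of variation of 44.1% and 14.0%, a difference that was not tested. It measured 10.95, 13.2 and 9.84 TPM in female WT and 11.7, 8.74 and 11.1 TPM in male WT libraries. In female cKO libraries it measured 9.46, 10.6 and 19.2 TPM and in male cKO libraries 14.0, 9.52 and 4.51 TPM. The values above and below all WT libraries were thus cKO values, with female cKO 3 highest and male cKO 3 lowest. The means were 10.9 ± 1.52 TPM in WT and 11.2 ± 4.94 TPM in cKO mice (SD, n = 6 each). The log2 fold change was -0.08 ± 0.26 (SE), with an interval from -0.64 to 0.48 (limma, adjusted p = 0.989; exact permutation p = 0.81), and its sign turned without male cKO 3, where it was 0.16. The cKO mean was thus slightly above the WT mean in TPM and below it on the log2 scale. A larger coefficient of variation in cKO libraries was not particular to *Lct* and *Calb1*. *Prox1*, *Tdo2* and *Pdzd2* had it too, as did *Il16* (3.56% in WT, 27.5% in cKO) and *Tanc1* (4.94% and 19.5%) of the wider dentate list. *Dsp* (28.3% and 21.2%) and *C1ql2* (26.4% and 24.5%) went the other way.

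**Figure D2:**
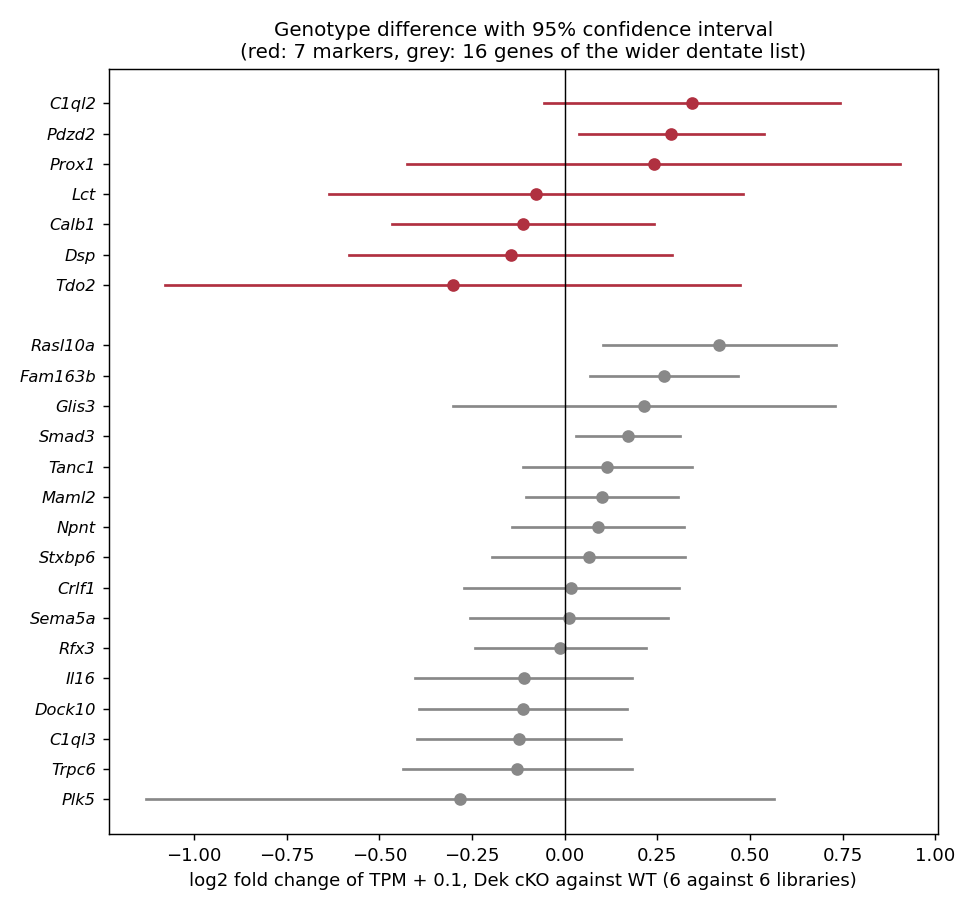
Log2 fold change of TPM + 0.1 between *Dek* cKO and WT mice (horizontal axis) for the 7 markers (red) and the 16 genes of a wider dentate list (grey), with 95% confidence intervals from limma over 6 and 6 libraries. The intervals of 6 of the 7 markers include 0, that of *Pdzd2* runs from 0.04 to 0.54, and the widest are those of *Tdo2*, *Prox1* and *Plk5*.

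The sexes were also compared separately. The female comparison called 0 of 7 members beside 0.0165% of all genes, and the male comparison 0 of 7 beside 0.0165%. At an unadjusted p under 0.05, limma gave 0 of 7 in females beside 5.79% of all genes and 0 of 7 in males beside 5.45%. In females the log2 fold changes ran from -0.25 for *Calb1* to 0.36 for *C1ql2*, and in males from -0.51 for *Tdo2* to 0.32 for *C1ql2*. All female WT libraries are C57-named and all female cKO libraries CMV-named, so genotype and prefix cannot be told apart in the female comparison. The interaction below contains that comparison and shares this limit. *Pdzd2* had nearly the same estimate in females (0.28) and in males (0.30). The test of the difference itself, the genotype by sex interaction, called 0 of 7 members and 0% of all genes, and at an unadjusted p under 0.05 it gave 0 of 7 beside 4.23% of all genes. The interaction estimates ran from -0.45 for *Lct*, with an interval from -1.57 to 0.67, to 0.27 for *Calb1*, with an interval from -0.42 to 0.96 (limma, adjusted p = 0.966 for each). The intervals were wide with 3 mice per group, the widest being that of *Tdo2* from -2.06 to 1.22. Exchanging the sex labels of the 2 libraries in conflict, to match the Y-linked genes, called no member in either sex or in the interaction. The interaction estimates were then -0.15 for *Lct* and -0.12 for *Calb1*, and the female estimate of *Calb1* was -0.05. Without the 2 libraries whose sex labels were in conflict, no member was called in either sex or in the interaction; *Lct* moved to -0.66 in males (limma, adjusted p = 0.556), *C1ql2* moved to 0.08 in females, and the interaction estimates of *Prox1* and *C1ql2* turned to 0.31 and 0.32.

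Among WT mice, the comparison of males with females called 0 of 7 members and 0% of all genes, and at an unadjusted p under 0.05 it gave 0 of 7 beside 3.63% of all genes. Of the 7 log2 differences, male minus female, 5 were positive, from 0.11 for *Calb1* to 0.53 for *Tdo2*, and those of *Lct* (-0.11) and *Pdzd2* (-0.05) were negative. *C1ql2* was at 59.2 ± 10.4 TPM in female WT and 76.3 ± 21.7 TPM in male WT mice (SD, n = 3 each), a difference of 0.35 with an interval from -0.20 to 0.89. Its genotype estimate, given above, was 0.34. Sex and the prefix of the library name cannot be told apart in these libraries.

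A wider list of 16 genes enriched in the dentate gyrus gave a similar account. All 16 were above 0 in every library, as were the 7 members. The cortex and choroid plexus markers were also above 0 in every library, so this does not measure how much dentate tissue a library held. Of the 16, 0 were called between genotypes, beside 0.148% of all genes. At an unadjusted p under 0.05, where 6.64% of all genes stood, limma gave 3 of the 16 with a positive log2 fold change and none with a negative one: *Rasl10a*, a small GTPase, *Fam163b*, and *Smad3*, the transducer of TGF-beta signals. *Rasl10a* ranged from 44.6 to 72.5 TPM with a median of 56.7 in WT mice and from 53.7 to 98.4 TPM with a median of 71.6 in cKO mice, for a log2 fold change of 0.42 ± 0.15 (SE; limma, adjusted p = 0.586). *Fam163b* ranged from 66.2 to 89.1 TPM (median 77.2) in WT and from 79.7 to 114.7 TPM (median 91.6) in cKO mice, for a log2 fold change of 0.27 ± 0.09 (SE; limma, adjusted p = 0.584). Values of the genotypes overlapped for both genes. *Smad3* ranged from 28.6 to 37.5 TPM in WT and from 33.5 to 37.0 TPM in cKO mice, where all 6 cKO values exceeded all WT values but that of male WT 2 (log2 fold change 0.17 ± 0.06 SE; limma, adjusted p = 0.628). Over the 16 genes, 10 log2 fold changes were positive and 6 negative with a median of 0.04, beside 0.02 over all genes. The split was 9 and 7 after median ratio rescaling and 8 and 8 after quantile normalization, so the split of signs did not hold under every scaling. The median was 0.025 and 0.028 under these scalings, beside -0.001 and -0.006 over all genes. In the CMV-named libraries only, the split was 7 and 9 with a median of -0.018. Without the cortex-rich female cKO 1 and 2, an omission chosen after seeing the data, it was 13 and 3, with a median of 0.125. Of the 16 genes, 5 had their lowest value over all libraries in female cKO 1 and 1 in female cKO 2.

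Neighboring cell types were measured from lists chosen by name in the same way. None of their genes was called between genotypes, beside 0.148% of all genes. Hilar mossy cells, the local targets of granule cells, had 6 of 6 positive log2 fold changes with a median of 0.06. Their 6 markers summed to 120 to 154 TPM in WT and 111 to 171 TPM in cKO libraries. Of the 6, 2 had positive log2 fold changes in females (median -0.07) and 5 in males (median 0.17). The 9 markers of immature neurons, which include the newborn granule cells of the adult dentate gyrus, had 6 positive and 3 negative log2 fold changes with a median of 0.02. Of the 9, *Tubb3* was also listed as a marker of neurons in general, so this list is not confined to young cells. *Dcx*, the microtubule protein of migrating young neurons, measured 7.63 to 11.7 TPM in WT and 7.59 to 12.3 TPM in cKO libraries, and *Eomes*, the factor of intermediate progenitors, 0.147 to 1.71 TPM in WT and 0.0783 to 0.958 TPM in cKO libraries. The CA1 pyramidal list had 7 of 8 negative log2 fold changes with a median of -0.21, and the CA3 list 4 of 8 with a median of -0.02. The markers of thalamus and habenula, which lie beside the hippocampus, had 8 of 8 positive log2 fold changes with a median of 0.30. These markers had 7 of 8 positive values in females (median 0.48) and 4 of 8 in males (median 0.001). They summed to 101.1 and 99.9 TPM in female cKO 1 and 2, the libraries that were also highest in cortex markers, and to 57.6 to 90.9 TPM in the other 10; the part of this tissue in the members' values was not tested. Over the 12 libraries the log2 level of *C1ql2* went with the mean of the mossy cell list (Pearson r = 0.726), that of *Dsp* with the choroid plexus list (r = 0.70) and that of *Lct* against the interneuron list (r = -0.717). These were the strongest of 105 such values (7 members and 15 lists), and the libraries share dissection and sequencing.

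**Figure D3:**
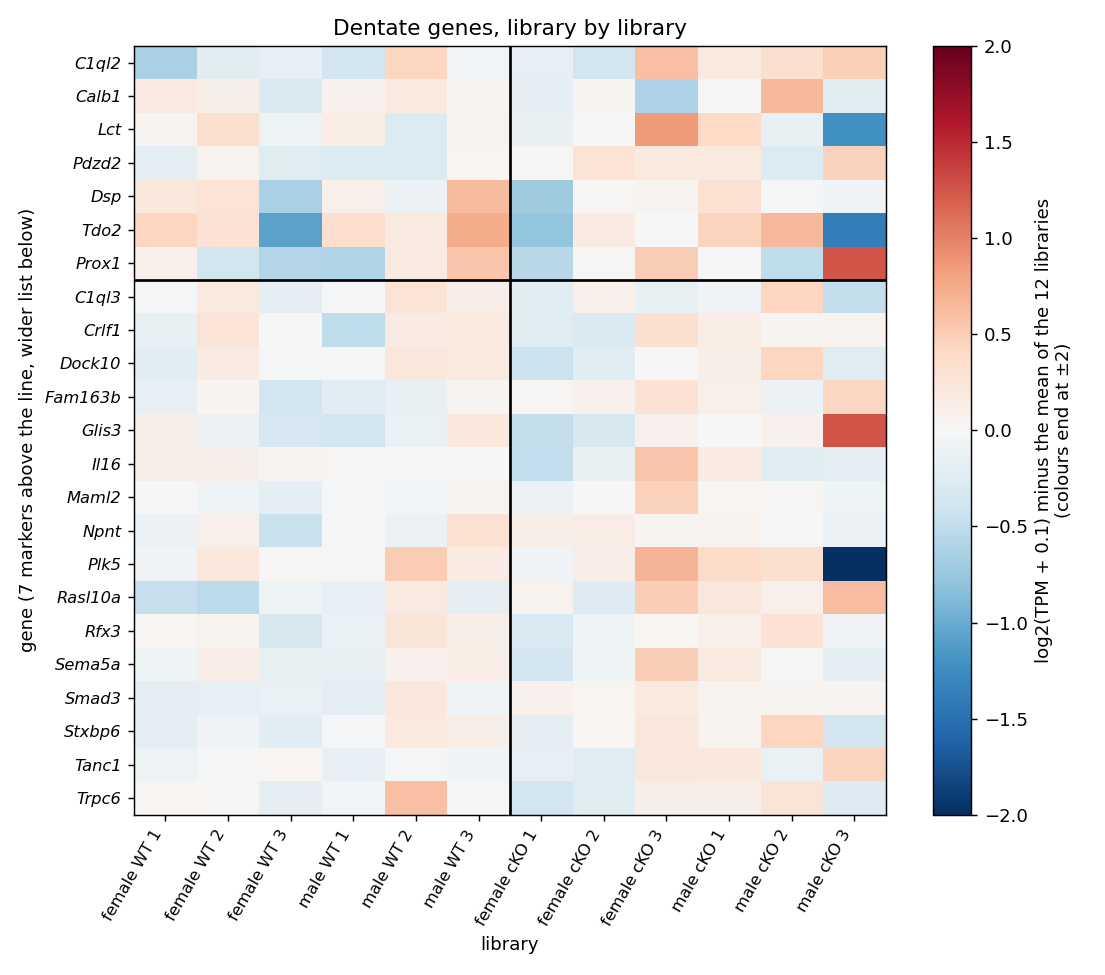
Deviation of each gene from its own mean over the 12 libraries, in log2 units of TPM + 0.1 (colour, ending at ±2), for the 7 markers (above the line, in order of level) and the wider dentate list (below it), with the 6 WT libraries to the left and the 6 cKO libraries to the right. The strongest colours are in male cKO 3, where *Prox1* and *Glis3* are at their highest and *Lct*, *Tdo2* and *Plk5* at their lowest.

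The members did not move as a block. Among the 21 pairs, 10 Pearson correlations of log2 levels over the 12 libraries were positive and 11 negative, with a median of -0.03. The pair most alike was *Dsp* and *Tdo2* (r = 0.735), followed by *Prox1* and *Pdzd2* (r = 0.669). The most opposed were *Calb1* and *Pdzd2* (r = -0.488). Much of this rested on the library male cKO 3: without it, 16 of the 21 correlations were positive with a median of 0.29, *Dsp* and *Tdo2* reached 0.901, *Prox1* and *Tdo2* turned from -0.19 to 0.44, and *Lct* and *Pdzd2* turned from -0.14 to 0.59. *Calb1* kept negative values with *C1ql2*, *Lct*, *Pdzd2* and *Prox1* in both sets. All libraries share tissue and sequencing, so no p-value is attached.

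**Figure D4:**
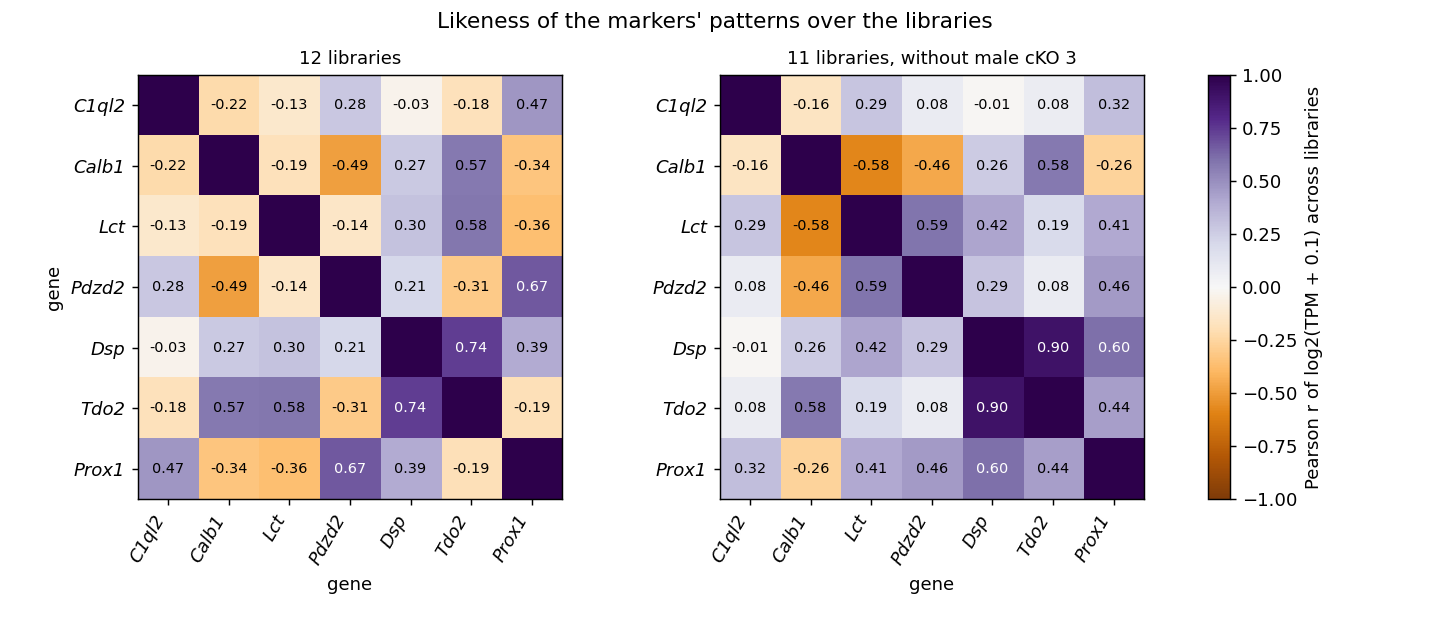
Pearson r of log2(TPM + 0.1) for each pair of markers (both axes) over 12 libraries (left) and over the 11 libraries without male cKO 3 (right), with the value printed in each cell. Positive cells number 10 of 21 pairs on the left and 16 of 21 on the right.

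In male cKO 3 the markers split most widely. *Prox1* and *Pdzd2* were at their highest of the 12 libraries there and *Lct* and *Tdo2* at their lowest, while *Dsp*, *C1ql2* and *Calb1* lay inside the range of the others. Of the wider list, 4 of 16 genes had their highest and 3 their lowest value in this library. *Plk5*, a polo-like kinase, was at 4.78 TPM beside 22.6 to 38.4 TPM in the other 11, and *Glis3*, a zinc finger factor, at 18.1 TPM beside 5.33 to 8.66 TPM. The next 4 genes were picked with their values in view. *Npy*, a neuropeptide of interneurons that granule cells also make after seizures, was at 529 TPM beside 107.6 to 140.9 TPM, and *Inhba*, an activity-induced subunit of activin, at 14.7 TPM beside 2.20 to 3.71 TPM. *Gfap*, the filament of reactive astrocytes, was at 1267 TPM beside 208 to 437 TPM, and *Gabrd*, a subunit of the extrasynaptic GABA receptor of granule cells, at 8.55 TPM beside 17.4 to 35.3 TPM. The other male cKO libraries were within the range of the remaining libraries for all 4 of these genes, so these values were seen in 1 of the 6 cKO mice. The other astrocyte markers did not all follow *Gfap* in male cKO 3. *Aqp4* was at 99.4 TPM beside 43.3 to 57.3 TPM in the other libraries, but *Gja1* was lower, at 68.6 TPM beside 115.7 to 151.3 TPM. *Slc1a3* and *Aldh1l1* lay inside the range of the others.

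The genes whose patterns most resembled the members over the 12 libraries were found among 14033 other named genes that averaged 1 TPM or more. For the mean of the 7 standardized members they were *Gm12216* (r = 0.873), *Vdac2* (r = 0.86), *Nsmce4a* (r = 0.857), *Ahcyl2* (r = 0.829) and *F11r* (r = 0.826). For single members they were *Jkamp* for *Prox1* (r = 0.95), *Ahcyl2* for *Dsp* (r = 0.943), *Slc7a14* for *C1ql2* (r = 0.931) and *Trhr* for *Calb1* (r = 0.914). For the remaining members they were *Phgdh* for *Lct* (r = 0.932), *Susd1* for *Tdo2* (r = 0.957) and *Kctd7* for *Pdzd2* (r = 0.944). Each member thus had a different gene as its closest, and each was the highest of 14033 correlations over 12 points. The members themselves were left out of this search, so it does not show how close they were to each other.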

How the data were processed

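Hippocampal poly-A RNA was sequenced as stranded paired-end libraries from 12 mice. The authors deposited gene-level TPM values. The submitters' processing notes name kallisto and mm10, while the published methods name STAR, Salmon and GRCm38; which of these made the table is not given in the sources used here. Gene symbols were matched through GENCODE M21. TPM values were tested as log2(TPM + 0.1) over genes that averaged 0.1 TPM or more, with limma 3.58.1 (R 4.3.3; moderated test, trended prior variance, Benjamini-Hochberg adjustment over all 18197 genes), using 2 groups for both sexes and 4 groups for the sexes, the interaction and the WT comparison. Each mouse gave 1 library; depth cannot be taken from TPM. A two-sided exact permutation test (Python 3, SciPy) was run for each member. Intervals are 95% confidence intervals. The fit was tested on simulated data with 200 changed genes, each by 1 on the log2 scale. It recovered 71.5% of them for both sexes, 58% in females, 59.5% in males, 36% for the interaction and 57% for the WT comparison. Recovery of smaller differences was not tested. Named genes were the 7 members, list genes passing a call or needed beside a member, and the genes most correlated with each member. The members and lists were chosen with earlier results of these data known. Alternatives changed the pseudocount, filter, scaling, prior, covariates and libraries used.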

Additional observations from a re-analysis of the deposited data

Results flagged for a closer look

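Of 46 sets of 6 values (23 dentate genes in each genotype), 6 had 1 library far from the other 5, where the gap to the nearest value was over 0.625 of the range; chance alone would single out about 1 in 20. Among the members, *Calb1* in WT mice was at 55.3 TPM in female WT 3 and at 70.3 to 77.3 TPM in the others. Among the wider list, *Glis3* was at 18.1 TPM in male cKO 3 (5.33 to 7.96 TPM in the other cKO libraries) and *Maml2*, a Notch coactivator, at 10.7 TPM in female cKO 3 (7.16 to 8.01 TPM). *Smad3* was at 37.5 TPM in male WT 2 (28.6 to 30.7 TPM) and at 37.0 TPM in female cKO 3 (33.5 to 34.6 TPM). *Trpc6*, a cation channel of granule cells, was at 14.0 TPM in male WT 2 (8.08 to 9.43 TPM). No cause was tested for these values, and female cKO 3 is 1 of the libraries whose sex label disagreed with the Y-linked genes.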

How the results depend on the processing

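Over 14 results and 333 alternative values, 311 kept their direction and side of the threshold or stayed within 1.5 times the count. Many of the 311 were counts of 0 called members that stayed at 0, some on leaving out a library outside the groups compared. No member was called in any comparison under any alternative run. The log2 fold change of *Calb1* was 0.0241 without both libraries of conflicting sex and 0.0012 without female cKO 3, and without 1 library each it ran from -0.25 to 0.0012; that of *Lct* ran from -0.26 to 0.16. The 27 genes called over all genes became 17 without a filter, 8 in the CMV-named libraries, 7 with the C57-named controls, 16 without both libraries of conflicting sex and 6 without both cortex-rich female cKO libraries (chosen after seeing the data). Leaving out 1 library gave 13 (female cKO 2) to 27 (male cKO 2), with 15 without female cKO 1 and 17 without male cKO 1. The 1 member with an exact permutation p under 0.05 became 0 in the CMV-named libraries, 0 with the C57-named controls, 0 without both libraries of conflicting sex, and 0 to 1 on leaving out 1 library; it was *C1ql2* in place of *Pdzd2* without both cortex-rich libraries (exact p = 0.0286) and without male WT 2 (exact p = 0.0476). These alternatives to the exact test were chosen after seeing the data.

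Replicate numbers did not pair the mice: over 6 same-numbered pairs the correlation of deviations ran from -0.07 to 0.06, with none above 0.1. With the replicate block, 3 genes and 0 members were called. Depth per library is unknown, so counting error could not be separated from differences between mice.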
